A study of Homo sapiens with 8 samples.

Results

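*DIO2*, *HHAT*, *CD24*, *ANXA3* and *AADACP1* are 5 of the 19775 genes with a probe set of their own on the arrays, and 14 of the 41091 probe sets that carry a single gene symbol belong to them. They were chosen by their signal, which was higher with *HSF1* knockdown, or by the effect of Doxycycline on it, which differed between the *shHSF1* and *shNTC* cells. The height of these genes in the knockdown arrays is therefore how they were found, and it is given below as a description without a p-value.

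Transcripts were read on 8 HG-U133 Plus2 arrays from A375, a human melanoma cell line that carries a hairpin in the inducible pLKO-Tet-On vector. The 4 groups of 2 arrays each were *shHSF1* cells with Doxycycline (100 ng/mL for 3 days) and the HSP90 inhibitor NVP-HSP990 (100 nM for 3 h), in which *HSF1* was knocked down; *shHSF1* cells under NVP-HSP990 and no Doxycycline; *shNTC* cells, whose hairpin targets no gene, with Doxycycline and DMSO (0.1% for 3 h); and *shNTC* cells with DMSO and no Doxycycline. Groups follow the sample titles, although the growth protocol in the labels names Doxycycline for all lines. Both groups with NVP-HSP990 were *shHSF1* cells and both with DMSO were *shNTC* cells, so the inhibitor and the hairpin line cannot be told apart, and the knockdown was measured with 1 *HSF1* hairpin and only in the presence of the inhibitor. Nothing in the labels tells if both arrays of a group stem from separate cultures, so p-values measure only the spread between these arrays, which may be technical.

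The signal of *HSF1* itself was 5.5 and 7.3 in the knockdown arrays, 99.0 and 42.5 in *shHSF1* cells under NVP-HSP990, 36.6 and 47.9 in *shNTC* cells with Doxycycline, and 38.2 and 47.3 in *shNTC* cells with DMSO. It fell with Doxycycline in *shHSF1* cells by 1.87 on the log2 scale (SE 0.29, limma adjusted p = 0.00754). The median signal of an array lay between 10.6 and 14.2. The ratio of the 3' to the 5' probe set of *ACTB*, a sign of RNA quality, was 46.8 in replicate 2 of *shNTC* cells with Doxycycline, whereas the other 7 arrays gave 4.73 to 18.9. The arrays of the knockdown comparison differed too, with 18.9 and 8.27 in *shHSF1* cells under NVP-HSP990 and 10.3 and 5.63 with the knockdown. Of the melanocyte lineage, *MITF* (1185 to 1966), *SOX10* (271.5 to 1069) and *S100B* (69.4 to 262.6) gave signal in every array, whereas the pigment genes *PMEL*, *MLANA*, *TYR* and *TYRP1* were at 11.7 or lower. In a bulk sample, more cells that express a gene and more of its RNA per cell cannot be told apart.

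The 5 genes have different roles. *DIO2* encodes the type 2 iodothyronine deiodinase, a selenoenzyme of the endoplasmic reticulum membrane that turns the prohormone thyroxine into active triiodothyronine inside cells, and it is a classical cAMP-induced gene in brown fat, the pituitary and the thyroid. *HHAT* encodes Hedgehog acyltransferase, the enzyme that attaches palmitate to Hedgehog ligands and so makes them fully active. *CD24* encodes a small, heavily glycosylated protein that a GPI anchor holds on the cell surface and that is widely used to sort stem and progenitor cells. *ANXA3* encodes an annexin, a protein that binds phospholipid membranes when calcium is present. *AADACP1* is annotated as a transcribed pseudogene, and lies beside *AADAC*, the arylacetamide deacetylase gene.

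HSF1, the main heat shock transcription factor, binds inverted repeats of the unit NGAAN, and CREB binds the cAMP response element. RefSeq promoter windows (GRCh38.p14) were at hand for 4 of the 5 genes, 9 windows in all, and 250 bases before each start site were searched on both strands. Below are the only *DIO2* stretch with a cAMP response element and the first of the 2 *HHAT* stretches with a heat shock element, printed on the strand of the gene. In *DIO2* (chr14:80212179-80212278, minus strand, positions -100 to -1 from the start site) the capitals mark TGACGTCA, which begins at -96, and the TATA box TATAAA, which begins at -31. In *HHAT* (chr1:210328022-210328081, plus strand, positions -230 to -171) the capitals mark a match to GAANNTTC that begins at -204.
DIO2: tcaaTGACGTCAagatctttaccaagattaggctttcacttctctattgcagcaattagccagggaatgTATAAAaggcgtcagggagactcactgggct
HHAT: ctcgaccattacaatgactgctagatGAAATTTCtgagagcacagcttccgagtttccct

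The heat shock element of 2 units (GAANNTTC or TTCNNGAA) was found in 2 of the 9 windows, both of *HHAT*, the second beginning at -216 of another start site. It stands in 11.6% of the 35116 RefSeq windows of this length. The stricter form of 3 units, GAANNTTC extended by NNGAA, which holds the shorter motif, was in none of the 9 and is in 0.441% of all windows. TGACGTCA is in 1.65% of all windows and TATAAA in 10.7%. The shorter motif TGACG, part of the full element, is in 21.2%, and was also present in 2 of the 3 *CD24* windows, beginning at -153 and -226, and in 1 *HHAT* window at -206. The *ANXA3* window held none of these motifs. These matches describe the letters only.

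By its brightest probe set and with 16 added before the log2, *DIO2* had the largest knockdown difference of 12672 genes tested. With 64 added its value was below that of *CD24* (1.45 and 1.71), and when the probe sets of each gene were averaged it was 1.23, below *ANXA3* at 1.74, *CD24* at 1.61 and *HHAT* at 1.59. Its brightest probe set had signals of 191.8 and 124.2 in the knockdown arrays, 15.9 and 16.8 in *shHSF1* cells under NVP-HSP990, 8.6 and 6.0 in *shNTC* cells with Doxycycline, and 13.9 and 3.7 in *shNTC* cells with DMSO. Both knockdown arrays stood far above the other 6, which lay near the median signal of their arrays or under it. The mean signal was 158 ± 47.8 (SD, n = 2) with the knockdown and 16.4 ± 0.64 in *shHSF1* cells without Doxycycline, a ratio of 9.66. The log2 difference, here and below between group means of log2(signal + 16), was 2.40 (SE 0.25), and it was 2.70 and 2.10 when arrays of the same replicate number were set against each other.

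The other 4 probe sets of *DIO2* gave the same order of the knockdown group over all others at lower signal. One of them (231240_at) read 99.0 and 72.1 in the knockdown arrays, against 9.9 and 10.5 in *shHSF1* cells under NVP-HSP990, 8.4 and 3.8 in *shNTC* cells with Doxycycline and 4.0 and 2.1 in *shNTC* cells with DMSO. Another (203699_s_at) read 63.0 and 39.2 in the knockdown arrays, against 11.2 and 5.0 in *shHSF1* cells under NVP-HSP990, 5.0 and 6.9 in *shNTC* cells with Doxycycline and 3.1 and 2.5 in *shNTC* cells with DMSO. The remaining pair stayed below the median in every array, at no more than 3.9 and 2.0, and failed the filter on dim signals. For the 3 probe sets that passed, the ratio of the knockdown mean to that of *shHSF1* cells under NVP-HSP990 ran between 6.31 and 9.66; apart from the brightest, they divide by a mean below the array medians.

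The single probe set of *HHAT* read 678.5 and 680.2 in the knockdown arrays, 216.9 and 211.9 in *shHSF1* cells under NVP-HSP990, 151.0 and 135.2 in *shNTC* cells with Doxycycline, and 277.3 and 210.5 in *shNTC* cells with DMSO. The lowest knockdown array was 2.45 times the highest other array. The log2 difference with the knockdown was 1.59 (SE 0.18), or 1.58 and 1.61 within the 2 replicate numbers, and the ratio of means was 3.17. Unlike in the *shHSF1* cells, the *shNTC* arrays with Doxycycline were both lower than the 2 *shNTC* arrays with DMSO.

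*CD24* was measured by 6 probe sets. The brightest (216379_x_at) read 986.0 and 569.1 in the knockdown arrays, 225.5 and 151.0 in *shHSF1* cells under NVP-HSP990, 258.1 and 132.4 in *shNTC* cells with Doxycycline, and 209.9 and 119.0 in *shNTC* cells with DMSO. The 3 groups without the knockdown overlapped one another, and the knockdown arrays were at least 2.20 times the highest of them. The log2 difference was 1.93 (SE 0.36), or 2.05 and 1.81 within replicate numbers. In this model the SE is the widest among the 5 genes. With the replicate number added to the model the SE was 0.144, the smallest, beside 0.147 (*HHAT*) to 0.203 (*DIO2*) for the others.

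All 6 *CD24* probe sets placed both knockdown arrays over the other 6 arrays, with ratios of means against *shHSF1* cells under NVP-HSP990 between 2.58 and 4.45. The highest ratio came from 266_s_at, with 505.3 and 335.8 in the knockdown arrays, against 103.1 and 85.7 in *shHSF1* cells under NVP-HSP990, 104.0 and 65.2 in *shNTC* cells with Doxycycline and 70.5 and 54.5 in *shNTC* cells with DMSO. The lowest came from the dim 209772_s_at, with 44.1 and 19.8 in the knockdown arrays, against 18.1 and 6.7 in *shHSF1* cells under NVP-HSP990, 13.7 and 3.0 in *shNTC* cells with Doxycycline and 12.4 and 10.1 in *shNTC* cells with DMSO. There the lowest knockdown array was 1.09 times the highest other array. In every group and with every *CD24* probe set the array of replicate 1 was higher than that of replicate 2. Of the 6, 3 have names ending in x_at, the maker's mark for probes that can also bind other transcripts, so related sequences may add to their signal.

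*ANXA3* had signals of 101.4 and 177.2 in the knockdown arrays, 19.2 and 42.0 in *shHSF1* cells under NVP-HSP990, 12.4 and 19.5 in *shNTC* cells with Doxycycline, and 14 and 23.0 in *shNTC* cells with DMSO. The array of replicate 2 was the higher one in all 4 groups, the reverse of *CD24*, and the lowest knockdown array was 2.41 times the highest other array. The log2 difference with the knockdown was 1.74 (SE 0.30), with 1.74 in each replicate number, and the ratio of means was 4.55.

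*AADACP1* was dim. Its signals were 37.2 and 37.3 in the knockdown arrays, 6.8 and 10.5 in *shHSF1* cells under NVP-HSP990, 4.5 and 3.3 in *shNTC* cells with Doxycycline, and 6.9 and 11.7 in *shNTC* cells with DMSO. Apart from the knockdown arrays, only 1 array reached its median signal. The ratio of means was 4.31, while the log2 difference was 1.12 (SE 0.18), because the 16 added before the logarithm is larger than the signals of the 6 other arrays.

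**Figure D1:**
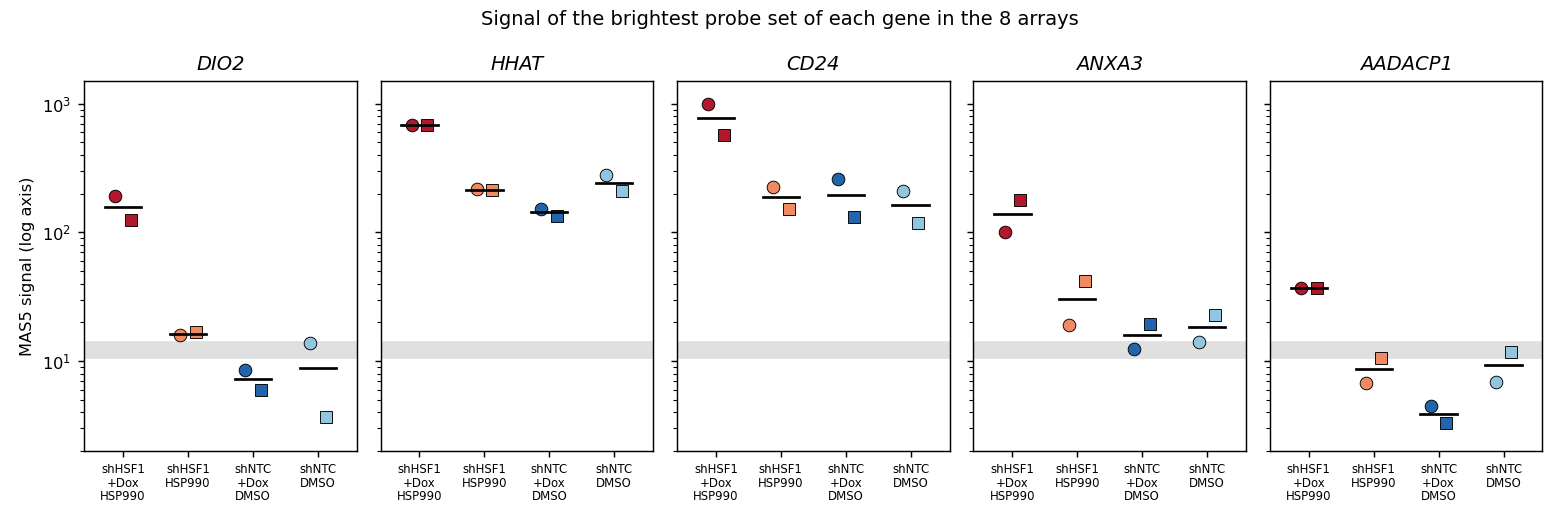
MAS5 signal (log axis) of the brightest probe set of each of the 5 genes in the 4 groups. Circles are replicate 1, squares replicate 2, black lines the mean of the 2 arrays and the grey band the range of the array medians (10.6 to 14.2); in each panel the 2 knockdown arrays lie above the 6 others.

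In all 14 probe sets both knockdown arrays were above all 6 other arrays, a separation that 7.78% of the 41091 single-symbol probe sets showed. Since the genes were picked for it, nothing is read from that count. After the filter, which a gene passes when 2 of the 8 arrays reach their median, 12 of the 14 probe sets and all 5 genes remained. The *DIO2* probe set 231240_at passed through the knockdown arrays alone. The *DIO2* probe set 203699_s_at and the only one of *AADACP1* each reached the median in just 1 array outside the knockdown group. Without the knockdown arrays they would not have passed either. By size of the knockdown difference, *DIO2* was 1st, *CD24* 7th, *ANXA3* 10th, *HHAT* 15th and *AADACP1* 60th among the 12672 genes, of which 0.994% were called higher and 1.85% lower with the knockdown (limma, Benjamini-Hochberg adjusted p under 0.05).

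By the brightest probe set, the order of the 3 groups without the knockdown differed between the genes. For *DIO2* and *ANXA3* the *shHSF1* cells under NVP-HSP990 came next after the knockdown group. The 2 arrays of *DIO2* in that group lay above all 4 *shNTC* arrays, while those of *ANXA3* overlapped with *shNTC* cells in DMSO. With the *DIO2* probe set 203699_s_at, replicate 2 of that group read 5.0, below the 6.9 of replicate 2 of *shNTC* cells with Doxycycline. For *HHAT* and *AADACP1* the *shNTC* cells with DMSO had the next highest mean, overlapping with *shHSF1* cells under NVP-HSP990, and *shNTC* cells with Doxycycline were lowest and apart from both. For *CD24* none of these 3 groups was apart from the next in order.

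Doxycycline in *shNTC* cells, both arms in DMSO, shows what the inducer does without an *HSF1* hairpin. None of the 12672 genes tested was called (limma, 0% higher and 0% lower; 306 genes had an unadjusted p under 0.05, and the methods' t-test also called 0 after adjustment). The choice of the 5 genes used the difference between the Doxycycline effects in the 2 lines, which holds this one, so their values are given without a test. *HHAT* had 151.0 and 135.2 in *shNTC* cells with Doxycycline and 277.3 and 210.5 in *shNTC* cells with DMSO, a log2 difference of -0.70 (SE 0.18). The log2 differences of the others were -0.34 (SE 0.18) for *AADACP1*, -0.11 (SE 0.30) for *ANXA3*, -0.06 (SE 0.25) for *DIO2* and 0.21 (SE 0.36) for *CD24*. Of the 4 *AADACP1* signals behind its value, 3 were below the median of their arrays. Without the array with the high *ACTB* ratio, the values were -0.63 for *HHAT*, -0.30 for *AADACP1*, -0.27 for *ANXA3*, 0.02 for *DIO2* and 0.65 for *CD24*.

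**Figure D2:**
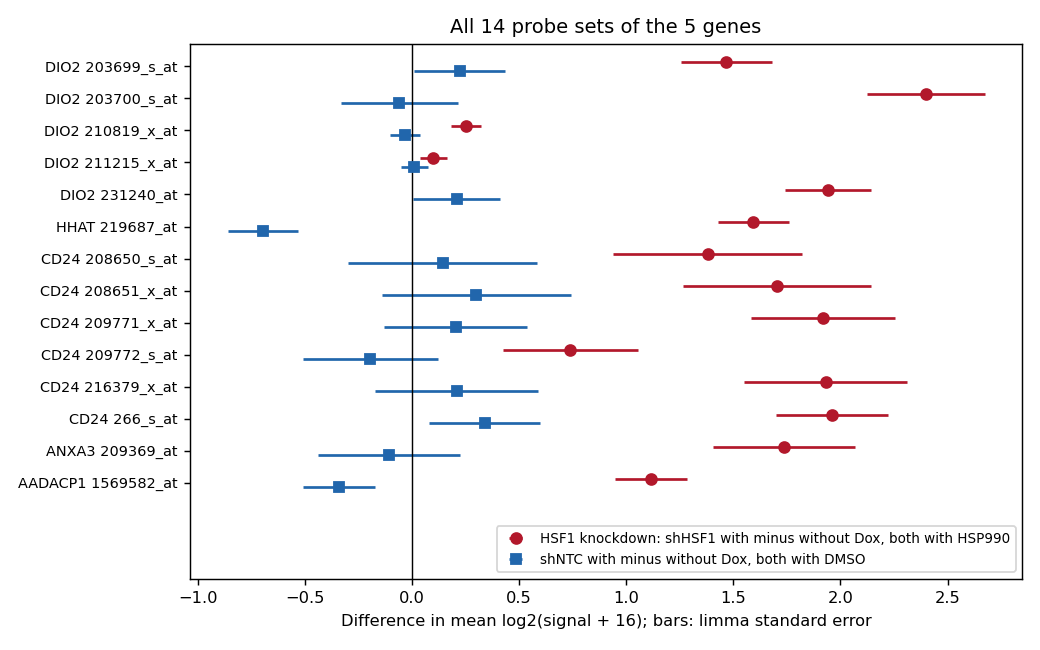
Log2 difference of all 14 probe sets with *HSF1* knockdown (red circles) and with Doxycycline in *shNTC* cells (blue squares), with limma standard errors from a fit over 41091 probe sets. The red values run between 0.10 and 2.40, and the lowest are those of the 2 *DIO2* probe sets under the array medians.

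Setting the 2 Doxycycline effects against each other (*shHSF1* under NVP-HSP990 minus *shNTC* under DMSO) gave 2.46 (SE 0.36) for *DIO2*, 2.29 (SE 0.25) for *HHAT*, 1.84 (SE 0.43) for *ANXA3*, 1.72 (SE 0.51) for *CD24* and 1.46 (SE 0.25) for *AADACP1*. This difference was part of the choice of the genes and carries no test. It equals the knockdown difference minus the Doxycycline difference in *shNTC* cells. By this arithmetic alone it was above the knockdown difference in the 4 genes with a negative value in *shNTC* cells, and below it in *CD24*.

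**Figure D3:**
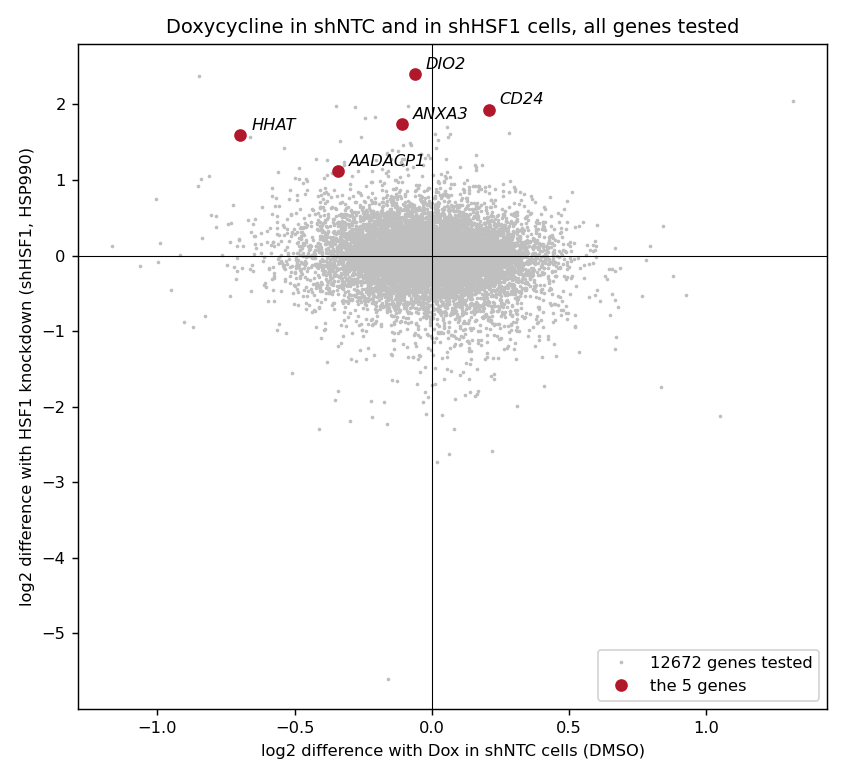
Log2 difference with *HSF1* knockdown (vertical) against log2 difference with Doxycycline in *shNTC* cells (horizontal) for 12672 genes tested, with the 5 genes in red. *DIO2*, *CD24* and *ANXA3* lie between -0.11 and 0.21 on the horizontal axis, and *HHAT* at -0.70 and *AADACP1* at -0.34 lie to the left.

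The remaining group differences use the same *shHSF1* arrays and are given as values only. *shHSF1* cells under NVP-HSP990 minus *shNTC* cells with DMSO gave log2 differences of 0.41 for *DIO2*, 0.40 for *ANXA3*, 0.20 for *CD24*, -0.04 for *AADACP1* and -0.16 for *HHAT*, with SE between 0.18 and 0.36. These values lay below the knockdown difference of the same gene in all 5. Since the genes were chosen for rising with the knockdown, nothing is read from that order. The knockdown with NVP-HSP990 minus *shNTC* cells with Doxycycline, where both arms had the inducer, gave 2.88 for *DIO2*, 2.25 for *ANXA3*, 2.13 for *HHAT*, 1.92 for *CD24* and 1.42 for *AADACP1*.

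The nearest 2 annotated genes on each side of the 5 that had a single-symbol probe set were read from the order of RefSeq genes. Of these 20 neighbours, 13 were tested, and 1 was called higher and 0 lower with the knockdown (limma), beside 0.994% and 1.85% of all genes. The one called was *FRAS1*, next to *ANXA3* on chromosome 4, which encodes an extracellular matrix protein of epithelial basement membranes. Its brightest probe set read 180.0 and 254.8 in the knockdown arrays, 39.9 and 73.9 in *shHSF1* cells under NVP-HSP990, 30.9 and 59.7 in *shNTC* cells with Doxycycline, and 28.4 and 58.2 in *shNTC* cells with DMSO. Both knockdown arrays were above the other 6, and replicate 2 was higher in every group, as for *ANXA3*. The difference was 1.70 (SE 0.34, limma adjusted p = 0.0277). A second *FRAS1* probe set read 198.9 and 236.0 in the knockdown arrays and 29.3 to 72.6 in the other 6, and 4 further ones were dim. The call was lost without replicate 1 of *shHSF1* cells under NVP-HSP990 or replicate 2 of the knockdown, with log2 differences of 1.36 to 1.47 and limma adjusted p between 0.15 and 0.16.

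Other neighbours of *ANXA3* were near zero, namely *MRPL1* (-0.0015) and *LINC01094* (0.12). Beside *DIO2*, *NRXN3*, a presynaptic adhesion molecule, read 93.8 and 60.2 in the knockdown arrays, against 33.3 and 29.7 in *shHSF1* cells under NVP-HSP990, 34.7 and 21.4 in *shNTC* cells with Doxycycline and 27.5 and 22.9 in *shNTC* cells with DMSO. Its difference of 0.95 (SE 0.24, limma adjusted p = 0.0641) missed the threshold, although the knockdown arrays were apart from the others. *DIO2-AS1*, annotated antisense to *DIO2*, was not tested and stayed at 5.0 or lower in all 8 arrays.

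Near *HHAT*, the long noncoding *SERTAD4-AS1* read 254.1 and 242.3 in the knockdown arrays, against 134.6 and 142.7 in *shHSF1* cells under NVP-HSP990, 141.0 and 104.8 in *shNTC* cells with Doxycycline and 154.1 and 138.0 in *shNTC* cells with DMSO. Its difference was 0.77 (limma adjusted p = 0.0651) and that of *RCOR3*, a corepressor of neuronal genes, was -0.68 (limma adjusted p = 0.0569), and neither passed. The 3 tested neighbours of *CD24* lay between -0.19 and 0.25. *AADAC*, beside *AADACP1*, did not pass the filter, with 10.4 and 7.0 in the knockdown arrays and 3.1 or lower in the other 6.

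**Figure D4:**
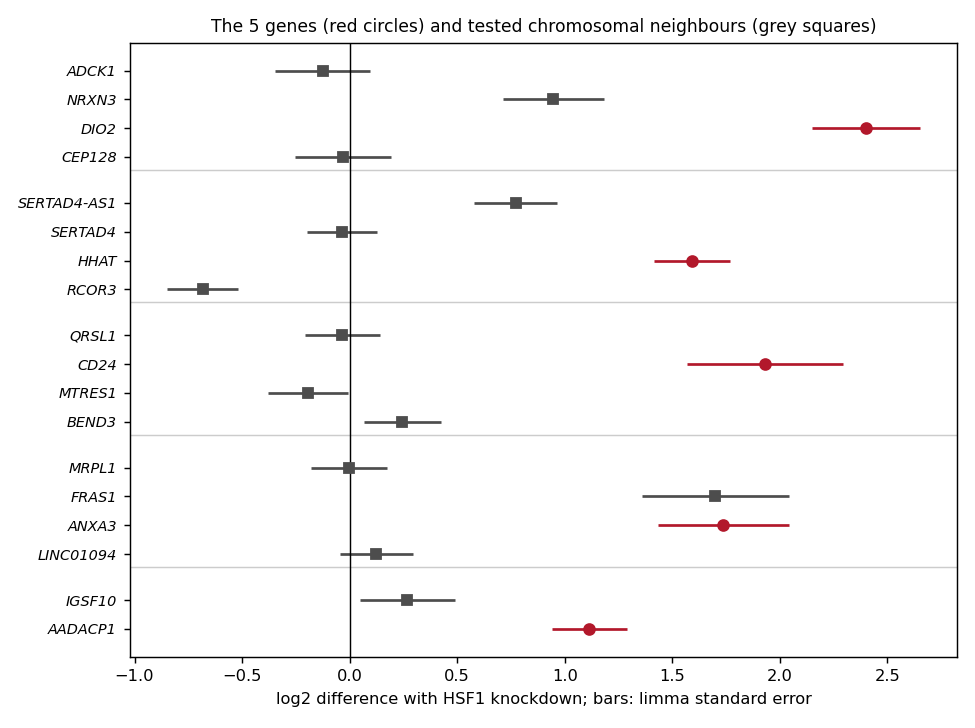
Log2 difference with *HSF1* knockdown, with limma standard errors, for the 5 genes (red circles) and their 13 tested neighbours (grey squares), in chromosomal order within each block. *FRAS1* at 1.70 lies beside *ANXA3* at 1.74, and the other neighbours lie between -0.68 and 0.95.

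The genes with the profile most like each of the 5 were found by the root mean square difference between mean-centred log2 values over the 8 arrays, which is small when 2 genes move alike. For *DIO2* these were *H2BC12* (0.34), *TMEM52B* (0.39) and *CD24* (0.42). For *HHAT* they were *GFRA1*, a receptor for the neurotrophic factor GDNF (0.17), *MYOCD*, a coactivator of smooth muscle genes (0.18), and *KRTAP4-9* (0.22). For *CD24* they were *H2BC21* (0.20), *H2AC6* (0.32) and *RELN*, which encodes the secreted glycoprotein reelin (0.33). *FRAS1* was closest to *ANXA3* (0.18), followed by *IL1RL1*, a receptor of the interleukin family (0.22), and *TSPAN2* (0.23). For *AADACP1* they were *LPAR1*, a receptor for lysophosphatidic acid (0.088), *CAPSL* (0.092) and *PGM5* (0.10).

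All these profiles were high in the knockdown arrays, with knockdown differences between 0.99 and 1.97. *H2BC12*, *H2BC21* and *H2AC6* encode core histones. *GFRA1* shared the shape of *HHAT*, with 116.2 and 114.3 in the knockdown arrays, 30.8 and 35.4 in *shHSF1* cells under NVP-HSP990, 19.0 and 12.5 in *shNTC* cells with Doxycycline and 27.5 and 32.4 in *shNTC* cells with DMSO. *H2BC21* shared that of *CD24*, replicate 1 being the higher array in all groups, with 871.3 and 520.3 in the knockdown arrays, 284.8 and 149.9 in *shHSF1* cells under NVP-HSP990, 259.1 and 176.4 in *shNTC* cells with Doxycycline and 203.9 and 147.0 in *shNTC* cells with DMSO. Among the 5 genes the closest pair was *HHAT* and *AADACP1* (0.31) and the farthest *DIO2* and *AADACP1* (0.72). *MYOCD*, also listed as like *HHAT*, read 49 and 36.2 in the knockdown arrays. Elsewhere it read 0.2 to 9.6, below the median of every array. *KRTAP4-9* read 40.1 and 54 in the knockdown arrays and 3.1 to 12.5 elsewhere. There it reached the median only in replicate 1 of *shNTC* cells with DMSO. The value added before the log2 is larger than these signals outside the knockdown group, so both likeness values depend on it. The same holds for *AADACP1*, at 3.3 to 11.7 there, and so for its likest genes and its pairs with *HHAT* and *DIO2*. *DIO2* (3.7 to 16.8) and *RELN* (3.3 to 17.2) were also near or below the added value outside the knockdown group, so their likeness values depend on it too. All profiles come from the same 8 arrays, so likeness is a description.

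To place the 5 genes among their partners, 11 lists of related genes were read, 169 genes of which 122 were tested. With the knockdown 1 of these was called higher (0.82%) and 4 lower (3.28%), beside 0.994% and 1.85% of all genes, and their median log2 difference was -0.07, beside 0.00 over all genes. Each list had at most 1 called gene. With NVP-HSP990 against DMSO none of the 122 was called (limma; 10 had an unadjusted p under 0.05, and the methods' t-test called 0), beside 0.197% higher and 0.0237% lower of all genes. With Doxycycline in *shNTC* cells none was called either (3 at an unadjusted p under 0.05, and 0 by the methods' t-test).

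Around *DIO2*, thyroid hormone activation and action had 13 tested genes, of which 1 fell and none rose. It was *THRB*, the thyroid hormone receptor beta, with 211.5 and 169.0 in the knockdown arrays, 329.5 and 351.6 in *shHSF1* cells under NVP-HSP990, 399.7 and 376.5 in *shNTC* cells with Doxycycline, and 305.0 and 306.7 in *shNTC* cells with DMSO, a difference of -0.80 (SE 0.17, limma adjusted p = 0.0332). The call was lost without either *shNTC* array in DMSO, without either array of *shHSF1* cells under NVP-HSP990, and without replicate 2 of the knockdown (-0.84 to -0.65, adjusted p 0.0802 to 0.207, limma). A list of factors that build selenocysteine into proteins and of other selenoproteins had 12 tested genes, none of them called (limma; 1 at an unadjusted p under 0.05). The largest difference was that of *SELENOW*, itself a selenoprotein (-0.47).

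Of 15 tested cAMP response genes, 1 fell and none rose. *FOS*, an immediate early transcription factor gene, read 8.1 and 7.5 in the knockdown arrays, 22.5 and 21.9 in *shHSF1* cells under NVP-HSP990, 8.0 and 7.7 in *shNTC* cells with Doxycycline, and 7.8 and 9.3 in *shNTC* cells with DMSO. It was above the array medians only in both arrays of *shHSF1* cells without Doxycycline, and passed the filter through these alone. The difference was -0.68 (SE 0.16, limma adjusted p = 0.0477), and leaving out any 1 of the 8 arrays ended the call (-0.70 to -0.66, adjusted p 0.0689 to 0.227, limma). With no filter the call was lost as well (limma adjusted p = 0.0523). The arrays that let *FOS* pass are the high side of the tested difference, so nothing is read from its call. *NR4A2*, a nuclear receptor gene induced by cAMP, had the largest value of the list at -1.11, but did not pass.

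Around *HHAT*, Hedgehog signalling had 15 tested genes. *HHIP*, which encodes a surface protein that binds and holds back Hedgehog ligands, was the only gene of all lists that rose. It read 210.3 and 138.4 in the knockdown arrays, 77.3 and 76.9 in *shHSF1* cells under NVP-HSP990, 42.3 and 41.8 in *shNTC* cells with Doxycycline, and 52.3 and 43.5 in *shNTC* cells with DMSO. Both *shHSF1* groups were apart from the *shNTC* groups, and the knockdown arrays were highest. The difference was 1.01 (SE 0.22, limma adjusted p = 0.0419), and the call was lost without any 1 array except replicate 2 of the knockdown (0.73 to 1.01, adjusted p 0.0544 to 0.204, limma). *PTCH1*, the Hedgehog receptor and a usual target of the pathway, was at 181.8 and 141.7 in the knockdown arrays, 196.5 and 177.2 in *shHSF1* cells under NVP-HSP990, 305.7 and 275.8 in *shNTC* cells with Doxycycline and 318.4 and 296.1 in *shNTC* cells with DMSO. It was not called with the knockdown (-0.20, limma adjusted p = 0.689), and both *shHSF1* groups lay below both *shNTC* groups (-0.67 for *shHSF1* cells under NVP-HSP990 minus *shNTC* cells with DMSO, limma adjusted p = 0.414).

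Among 5 tested membrane-bound O-acyltransferases, the enzyme family of *HHAT*, 1 fell and none rose. *LPCAT3*, which puts polyunsaturated fatty acids into phospholipids, read 222.8 and 245.3 in the knockdown arrays, 360.3 and 520.7 in *shHSF1* cells under NVP-HSP990, 425.1 and 370.0 in *shNTC* cells with Doxycycline, and 350.8 and 354.7 in *shNTC* cells with DMSO. The difference was -0.85 (SE 0.19, limma adjusted p = 0.0441), lost without any 1 array except replicate 1 of *shHSF1* cells under NVP-HSP990 (-0.91 to -0.59, adjusted p 0.0588 to 0.193, limma).

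Around *CD24*, none of 18 GPI-anchored surface proteins and none of 22 genes of GPI anchor synthesis was called (limma; 2 and 4 at an unadjusted p under 0.05). The largest differences there were those of *GPC6*, a glypican (-0.71, limma adjusted p = 0.0904), and *PIGL*, an enzyme of an early step of anchor synthesis (0.61, limma adjusted p = 0.128). Of 6 tested ligands, receptors and stem cell markers, *ITGB1*, the integrin beta 1 subunit, fell. It read 1210 and 1356 in the knockdown arrays, 2563 and 2991 in *shHSF1* cells under NVP-HSP990, 2718 and 3359 in *shNTC* cells with Doxycycline, and 2259 and 2881 in *shNTC* cells with DMSO, a difference of -1.10 (SE 0.19, limma adjusted p = 0.0130). Without either knockdown array or replicate 2 of *shHSF1* cells under NVP-HSP990 it was -1.18 to -0.99, with adjusted p between 0.0681 and 0.0953 (limma). *CD44*, often paired with *CD24* in sorting, was at -0.10 and was not called.

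None of the 9 other annexins tested was called (limma; 1 at an unadjusted p under 0.05). *ANXA1*, *ANXA2* and *ANXA5* lay between -0.11 and 0.01, and the largest value was that of *ANXA10* (-0.60). Their S100 partners gave no call among 5 (2 at an unadjusted p under 0.05), with *S100B* at -1.03 (limma adjusted p = 0.105). In the arylacetamide deacetylase and carboxylesterase family only 2 of the 6 genes on the arrays were tested, and the larger difference was that of *NCEH1* (-0.37).

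**Figure D5:**
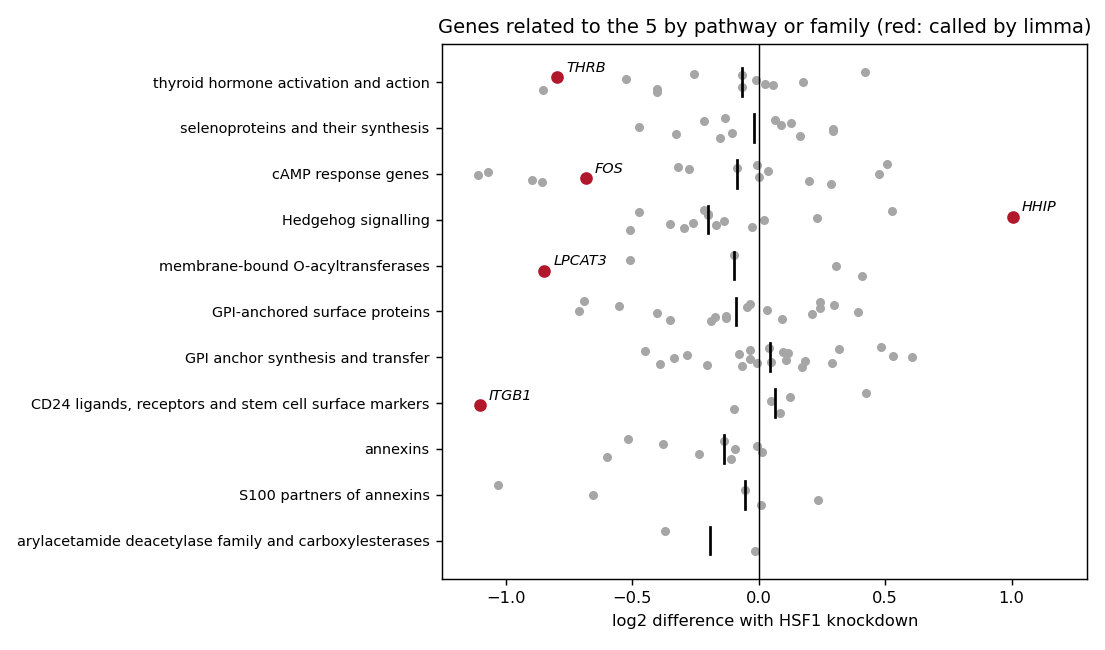
Log2 difference with *HSF1* knockdown of the 122 tested genes in 11 lists related to the 5 genes. Each point is a gene, black bars are list medians, and red points are the 5 genes called by limma, of which *HHIP* lies at 1.01 and the others between -1.10 and -0.68.

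Markers of other cell types were read beside these results. Of 7 fibroblast markers, 5 were tested and 1 rose, *LUM* (lumican), at 756.3 and 708.2 in the knockdown arrays, against 450.9 and 429.7 in *shHSF1* cells under NVP-HSP990, 460.3 and 373.5 in *shNTC* cells with Doxycycline and 421.2 and 430.7 in *shNTC* cells with DMSO (0.71, limma adjusted p = 0.0385). Leaving out 1 array of the knockdown, of *shHSF1* cells under NVP-HSP990 or of *shNTC* cells in DMSO ended that call (0.67 to 0.76, limma adjusted p 0.0881 to 0.154). The summed signal of this list was 898.6 to 942.8 in the knockdown arrays and 514.6 to 664.1 in the other 6, and *LUM* made up most of it. The list median was -0.15, *COL1A1* (-0.38), *PDGFRA* (-0.40), *DCN* (-0.15) and *PDGFRB* (0.31) were not called, and *COL1A2* and *COL3A1* stayed at 9.7 or lower. The part of such cells in the signal of the 5 genes was not tested. The summed signal of 8 hepatocyte markers was 46.6 to 52.4 in the knockdown arrays and 66.1 to 113.4 in the others. *SERPINA1*, the only one of them tested, read 26.3 and 9.0 in the knockdown arrays and 45.6 to 85.5 in the other 6 (-1.34, limma adjusted p = 0.0509), and *ALB* was at 4.3 or lower throughout. Among colon epithelial and keratinocyte markers, *KRT8* (65.4 to 96.8), *KRT14* (74.2 to 169.7) and *KRT10* (876.8 to 1233) gave signal in all arrays, while *EPCAM* was at 14.3 or lower and *CDH1* at 6.3 or lower. Of the thyroid markers *PAX8* read 14.7 to 34.7 and *NKX2-1* 11.7 to 34.4, with *TG* at 8.3 or lower. Of the blood markers *HBB* read 3.6 to 19.8 and *PTPRC* was at 5.4 or lower. The summed signals of colon, keratinocyte and thyroid markers in the knockdown arrays were 107.6 to 122.4, 1259 to 1371 and 63.0 to 71.2, against 94.1 to 121.1, 1001 to 1309 and 41.0 to 75.0 in the other 6 arrays.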

How the data were processed

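RNA of 8 A375 samples was hybridized to HG-U133 Plus2 arrays after amplification and biotin labelling. The authors deposited linear MAS5 signal intensities (version not given in the sources used here), scaled to a mean of 150.02 per array after trimming 2% at each end; no further normalization was done. Groups came from the sample titles; description fields that name other cells or drugs were not used.

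Of 54675 probe sets, 41091 had 1 gene symbol in the platform annotation, 1801 several, 11721 none, and 62 were controls. Only the first kind was used. Each gene was represented by its brightest probe set (mean log2 over the arrays), and was tested when 2 or more of the 8 arrays reached their median signal. log2(signal + 16) was fitted with limma 3.58.1 in R 4.3.3 (means model of 4 groups over all 8 arrays, empirical Bayes with an intensity trend, 4 residual and 6.36 prior degrees of freedom). Tests were two-sided, Benjamini-Hochberg adjusted over 12672 genes, called at an adjusted p under 0.05, and tried on simulated data with known changes. For arrays, their number limits the precision.

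The 5 genes, the lists, the rule and the tests were chosen with earlier results of these data known. A test of the 5 genes with Doxycycline in *shNTC* cells was planned, but its p-values are not given, since these arrays entered the choice. Named were the 5 genes, *HSF1*, up to 4 called genes of each list or, with none, the 1 or 2 with the largest difference, and the 3 likest genes per member; the neighbours and markers were added for their position or cell type, and *PTCH1*, *CD44*, *NR4A2*, *ANXA1*, *ANXA2* and *ANXA5* for their role. Alternatives were adding 1 or 64, no filter, a filter of all 8 arrays, quantile normalization, median centring, the mean of a gene's probe sets, probe sets tested singly, no variance trend, only the arrays compared, a replicate block, the Student t-test of the paper's statistics (the methods' t-test) and leaving out each array. Promoter sequences and gene order came from RefSeq tables. The symbols were those of the platform annotation, and none changed when matched to RefSeq by gene ID. Plots were made with Python 3.11.15 and matplotlib 3.10.9.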

Additional observations from a re-analysis of the deposited data

Results flagged for a closer look

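Doxycycline was followed by higher *HHAT* and *AADACP1* in both *shHSF1* arrays with NVP-HSP990 and by lower values in both *shNTC* arrays with DMSO. The share of all genes with this pattern was not counted, and nothing is read from the pattern itself. The difference between the 2 effects was 2.29 on the log2 scale for *HHAT*, of which 1.59 was the effect in *shHSF1* cells and -0.70 that in *shNTC* cells. For *AADACP1* it was 1.46, with 1.12 in *shHSF1* cells and -0.34 in *shNTC* cells. Only 1 *AADACP1* array outside the knockdown group, a *shNTC* array with DMSO, reached its median signal, so the *shNTC* value compares signals mostly below it. The difference was not tested, because it was among the values that chose the genes, and the lines also differed in the inhibitor.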

How the results depend on the processing

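The knockdown difference of all 5 genes was positive in every setting run. Nothing is read from that sign, since the genes were chosen on these same arrays for rising. Several settings, such as leaving out a *shNTC* array, cannot change the value at all. With 1 added before the log2 the difference was 3.163 for *DIO2*, 2.196 for *ANXA3* and 2.014 for *AADACP1*. With 64 added the difference was 1.449, 1.089 and 0.4794 for these and 1.417 for *HHAT*. The mean of all *DIO2* probe sets gave 1.231. With each array left out the ranges were 2.116 to 2.683 for *DIO2*, 1.578 to 1.609 for *HHAT*, 1.543 to 2.319 for *CD24*, 1.377 to 2.097 for *ANXA3* and 1.007 to 1.224 for *AADACP1*. Under a filter of all 8 arrays *DIO2*, *AADACP1*, *FOS* and *HSF1* were not tested.

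The small differences of the 5 genes with Doxycycline in *shNTC* cells turned sign for *DIO2* with the mean of its probe sets (0.0689), and with 1 array left out for *DIO2* (-0.3621 to 0.2399), *ANXA3* (-0.2966 to 0.08189) and *CD24* (-0.2348 to 0.6504).

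Over all list genes, which need not be the same ones each time, 1 was called higher and 4 lower with the knockdown. None was higher with no filter, median centring, probe sets tested singly, only the 4 arrays compared, or the methods' t-test (0 each), and 0 to 1 with 1 array left out. The number lower was 2 with no filter, 2 with median centring, 2 with the mean of probe sets, 2 with probe sets tested singly, 1 with only 4 arrays, 0 with the t-test, and 0 to 4 with 1 array left out. Over all genes, 126 higher and 234 lower became 73 and 148 with no filter, 25 and 70 with only 4 arrays, 0 and 0 with the t-test (adjusted), and 39 to 135 and 84 to 246 with 1 array left out. *FRAS1* also lost its call with no filter, the mean of probe sets, only 4 arrays and the t-test (0.63 to 1.70, adjusted p 0.0523 to 0.456). Apart from leaving out arrays, *LPCAT3* lost its call in 6 of 12 settings, *THRB* in 4, *HHIP* in 5 and *ITGB1* in 1. *LUM* lost it in 7 of 12 and *FOS* in 7 of 11. The mean of probe sets gave -0.49 for *LPCAT3*, -0.53 for *THRB* and 0.53 for *LUM* (limma adjusted p 0.144, 0.0625 and 0.0946). *HSF1* lay between -3.17 and -0.90 in all settings and lost its call with only 4 arrays (limma adjusted p = 0.0652) and by the t-test. The causes were not tested.

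The replicate numbers are shared across groups, but the labels tie them to no batch. Deviations of same-numbered arrays correlated at 0.685 between the *shHSF1* groups, 0.464 between the *shNTC* groups and 0.016 to 0.276 otherwise. With the replicate block, 3 list genes were higher and 11 lower, and over all genes 261 and 491. The members' differences stayed as given, with SE between 0.144 for *CD24* and 0.203 for *DIO2*.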
